A study of Mus musculus with 23 samples.

Results

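The 10 cytosolic heat shock genes described here are Hsf1, Hspa1a, Hspa1b, Hspa8, Hsph1, Dnajb1, Bag3, Hsp90aa1, Hsp90ab1 and Hspb1. They were chosen by name, with earlier results of these data known. All 10 were found among the 14651 genes measured in mouse brown adipose tissue (BAT). RNA sequencing was done on BAT from 23 mice. Control mice were Mcu fl/fl males with loxP sites around exon 2 of Mcu, which encodes the pore of the mitochondrial calcium uniporter. BAT-Mcu-KO (knockout) mice carried the same alleles together with Ucp1-Cre, in which the promoter of Ucp1 drives the recombinase in brown adipocytes, so the other cells of the tissue keep Mcu. All mice were males on a C57BL/6 background, 8 to 12 weeks old. Groups of 6 control and 6 BAT-Mcu-KO mice stayed at room temperature (RT). The other mice, 5 control and 6 BAT-Mcu-KO, were housed singly, without bedding, at 4°C for 6 h. The mice at 4°C had no food during the exposure. Whether the mice at RT had food in that time, or were housed singly and without bedding, is not stated for this experiment. Effects of cold, of a lack of food and of this housing therefore cannot be told apart here.

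Heat shock proteins are chaperones that hold unfolded proteins, fold them or pass them on for degradation. HSP70 proteins bind exposed stretches of a client, HSP40 partners deliver clients and stimulate the ATPase of HSP70, and HSP110 proteins and BAG proteins exchange the nucleotide so that the client is released. HSP90 acts later, on clients that are close to their folded state, and small heat shock proteins hold unfolded proteins without using ATP. HSF1 is the transcription factor of the heat shock response: held inactive in unstressed cells, it forms trimers on stress and binds inverted repeats of the letters GAA, the heat shock element. BAT makes heat when the sympathetic nerves are activated by cold.

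The labels were first checked on the targeted gene. Mcu had a normalized count of 70.8 to 136 in the 11 control mice and of 15.2 to 42.4 in the 12 BAT-Mcu-KO mice, with no overlap between the genotypes. All 7 brown adipocyte markers were present in every group. The depth was 7129271 to 21006347 reads per mouse. The summed level of 8 skeletal muscle markers ranged from 14.9 to 46084 between mice and overlapped between all 4 groups, and 0 of these markers passed the test in any comparison. The summed level of 5 endothelial markers was higher at 4°C, with 5576 to 9764 against 2844 to 4139 in control mice and 5166 to 9121 against 3114 to 4377 in BAT-Mcu-KO mice. Of these markers, 3 passed the test as higher in each genotype and 2 did not pass. The ratio of the mean at 4°C to that at RT was 0.99 and 0.91 for Tek in control and BAT-Mcu-KO mice. For Cdh5 it was 1.27 and 1.03, and the temperatures overlapped for both genes. The part of these cells in the results below was not tested, and in whole tissue fewer cells of a type and less RNA per cell cannot be told apart.

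Promoter sequences from RefSeq (GRCm38.p6), running from 250 bases before to 50 bases after the start site, were found for 6 of the 10 genes. Hspa8, Hsp90aa1, Hsp90ab1 and Hsf1 were not matched. A heat shock element of 3 units was searched as GAANNTTCNNGAA or TTCNNGAANNTTC, and one of 2 units as GAANNTTC or TTCNNGAA. Both forms were read on both strands, and each match of 3 units holds a match of 2. Of 32851 mouse promoter windows, 0.603% held 3 units and 15.1% held 2 units. Counted by gene, over all windows of a gene, 14.1% of the 9982 measured genes with a window held 2 units and 0.591% held 3. Of the 6 genes, 5 held 2 units and 1, Hsph1, held 3. The 5 include both Hspa1a and Hspa1b, whose windows are almost the same. The stretches that carry the elements follow, 5′ to 3′ on the strand of the gene, with the elements in capitals. They are shown because Hspa1a and Hspa1b are almost the same in this stretch, Hspb1 holds a pair of elements, and Hsph1 holds the longer one.
Hspa1a, chr17:34972157-34972306, minus strand: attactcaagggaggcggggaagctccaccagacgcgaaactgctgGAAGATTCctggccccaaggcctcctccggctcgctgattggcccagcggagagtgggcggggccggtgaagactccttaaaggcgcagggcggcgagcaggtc
Hspa1b, chr17:34959239-34959388, minus strand: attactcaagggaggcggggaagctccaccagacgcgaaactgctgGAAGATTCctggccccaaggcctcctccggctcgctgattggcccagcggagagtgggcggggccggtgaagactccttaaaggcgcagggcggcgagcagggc
Hspb1, chr5:135887769-135887918, plus strand: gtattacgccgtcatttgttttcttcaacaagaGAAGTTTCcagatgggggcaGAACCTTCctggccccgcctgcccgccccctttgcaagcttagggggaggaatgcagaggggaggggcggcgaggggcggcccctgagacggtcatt
Hsph1, chr5:149636286-149636395, minus strand: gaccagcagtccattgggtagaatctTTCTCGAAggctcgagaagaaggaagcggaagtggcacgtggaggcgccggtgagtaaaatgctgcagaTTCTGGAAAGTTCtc
The first 3 stretches end at the base before the start site, and that of Hsph1 runs from 80 bases before to 30 bases after the start site that lies farther into the gene. The stretches of Hspa1a and Hspa1b differ at 1 of 150 bases, and their whole windows have the same base at 296 of 300 positions. In both genes the element lies at -104 to -97. The elements of Hspb1 lie at -117 to -110 and at -97 to -90. In Hsph1 the 2 units lie at -54 to -47 and the 3 units at 16 to 28 past the start site. Bag3 held 2 units at 43 to 50 past its start site, and no match was found in the windows at the start sites of Dnajb1. A match is a description of the letters and not a measured binding site.

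At 4°C, 9 of the 10 genes rose in control mice and 9 rose in BAT-Mcu-KO mice, and Hsf1 was the exception in both. A gene was called at an adjusted p under 0.05 in limma, over all 14651 genes. The response to cold was broad: 46.0% of all genes were called in control mice and 43.3% in BAT-Mcu-KO mice, with 22.3% and 21.4% of all genes called higher at 4°C. The median log2 fold change was 1.99 over the 10 genes against -0.02 over all genes in control mice, and 1.86 against -0.02 in BAT-Mcu-KO mice. The lowest mouse at 4°C exceeded the highest mouse at RT for 9 of the 10 genes in control mice, where this held for 13.0% of all genes, and for 7 of the 10 in BAT-Mcu-KO mice, where it held for 12.4%. Log2 fold changes here are differences in the mean of log2(normalized count + 1), each with its standard error (SE), and adjusted p-values are those of limma with the Benjamini-Hochberg method.

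**Figure D1:**
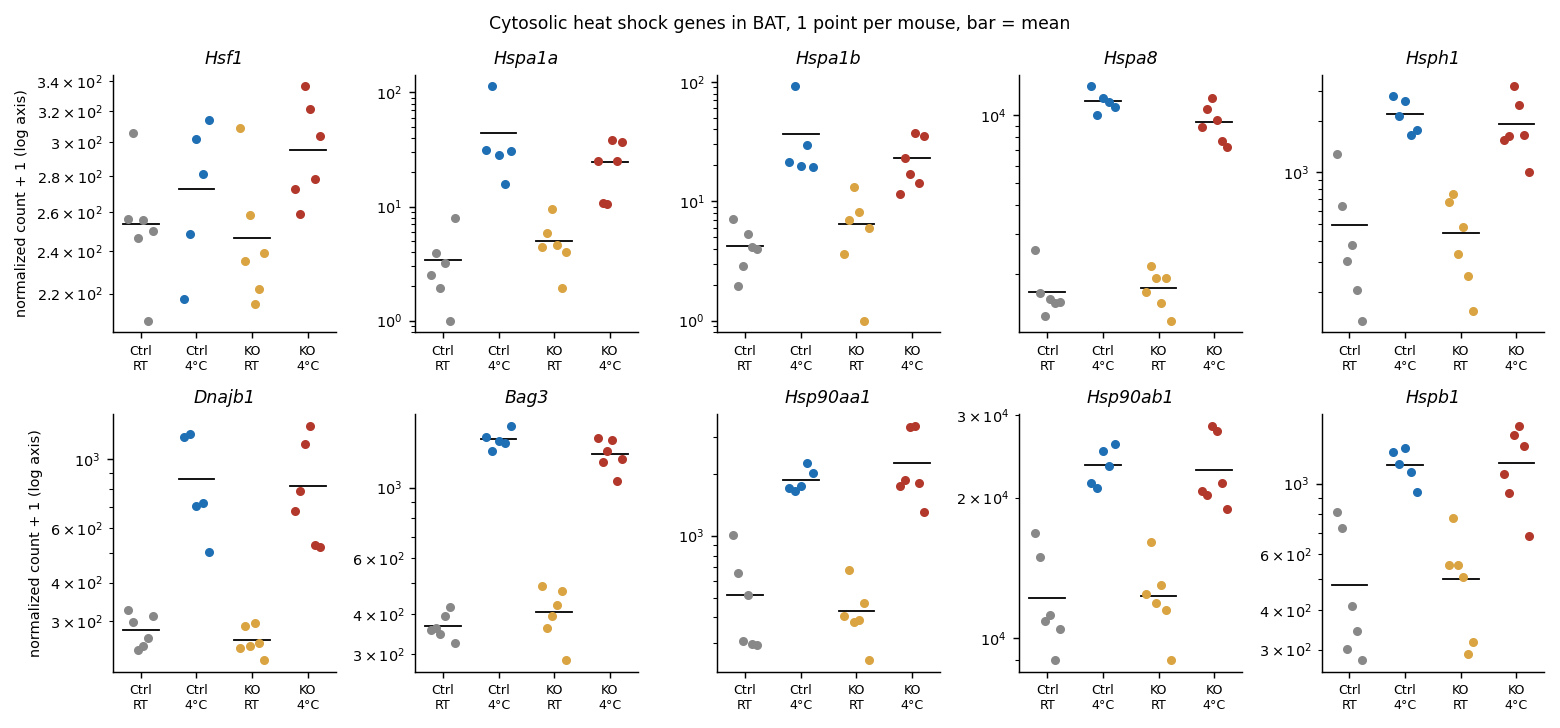
Normalized count + 1 of each of the 10 cytosolic heat shock genes (y axes logarithmic, with a range of their own in each panel) in the 4 groups, with 1 point per mouse and a bar at the group mean. The points at 4°C lie above those at RT for 9 genes in control mice and for 7 in BAT-Mcu-KO mice, while the groups overlap for Hsf1.

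Hsf1, the regulator, did not pass the test. Its normalized count was 207, 252 and 304 (lowest, median and highest of 6) in control mice at RT, and 216, 247, 301, 279.9 and 313 (mice 1 to 5) after the cold. Knockout mice had 214, 236 and 308 at RT against 258, 290.1 and 336 at 4°C. The groups overlapped in both genotypes. Between the temperatures Hsf1 differed by 0.10 on the log2 scale in control mice (SE 0.12, limma adjusted p = 0.510) and by 0.26 in knockout mice (SE 0.11, adjusted p = 0.0562). The second value lies close to the threshold: it passed, with an adjusted p of 0.0433, where the test was limited to genes averaging 50 normalized counts or more, and also without BAT-Mcu-KO mouse 1 at RT (adjusted p = 0.0178), BAT-Mcu-KO mouse 2 at 4°C (0.0410), control mouse 1 at 4°C (0.0424) or control mouse 5 at RT (0.0476).

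Hspa1a and Hspa1b encode the stress-inducible HSP70 and lie beside each other on chromosome 17 (GRCm38, 34969190 to 34972156 and 34956436 to 34959238, minus strand). They are the least abundant of the 10. Of the 25-base stretches of the Hspa1a transcripts, 65.5% also occur in Hspa1b, and of those of Hspa1b 69.7% occur in Hspa1a. Because reads of 25 bases from each end were counted only where they mapped uniquely, both levels are uncertain and their split is too. The exons of Hspa1a also overlap Gm20481 on the other strand, and counting did not use the strand.

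Hspa1a had a normalized count of 0, 1.85 and 6.95 (lowest, median and highest) in control mice at RT, which rests on 0 to 7 reads per mouse. It was 30.3, 112, 27.4, 14.7 and 29.7 in the 5 such mice at 4°C. In the knockout the values were 0.929, 3.52 and 8.45 at RT against 9.59, 24.2 and 37.5 at 4°C. The groups did not overlap in either genotype, and control mouse 2 at 4°C stood far above the other control mice. Hspa1a rose at 4°C by 3.62 on the log2 scale in control mice (SE 0.53, limma adjusted p = 3.6e-06) and by 2.25 in knockout mice (SE 0.50, adjusted p = 0.00068). Without control mouse 2 at 4°C the value in control mice was 3.19.

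Hspa1b was 0.970, 3.04 and 6.08 in control mice at RT, and 20.2, 91.1, 18.7, 28.6 and 18.4 after the cold. The BAT-Mcu-KO values were 0, 5.48 and 12.2 at RT against 10.5, 18.9 and 36.6 at 4°C. The groups were apart in control mice and overlapped in BAT-Mcu-KO mice, and control mouse 2 at 4°C was again the highest. Hspa1b rose at 4°C by 2.92 on the log2 scale in control mice (SE 0.53, limma adjusted p = 7.5e-05) and by 2.06 in knockout mice (SE 0.51, adjusted p = 0.0019). With the counts of both genes summed, the log2 fold change was 3.38 (SE 0.48, adjusted p = 3.0e-06) in control mice and 2.35 (SE 0.46, adjusted p = 0.00019) in knockout mice. The size of these changes depends on the pseudocount: with 10 in place of 1, Hspa1a changed by 1.87 and 1.19 and Hspa1b by 1.59 and 1.02 on the log2 scale, and each remained called.

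Hspa8 encodes the constitutive HSP70 of the cytosol, which is made in unstressed cells too. Its normalized count was 1295, 1519 and 2535 in control mice at RT, and 13425, 9977, 11874, 11416 and 10860.4 after the cold. Knockout mice had 1239.8, 1785 and 2167 at RT against 7251, 9220.3 and 11935 at 4°C. The lowest mouse at 4°C was well above the highest mouse at RT in both genotypes. Hspa8 rose at 4°C by 2.81 on the log2 scale in control mice (SE 0.15, limma adjusted p = 4.5e-13) and by 2.43 in knockout mice (SE 0.15, adjusted p = 2.1e-12), and the interval of the second value was 2.13 to 2.73 (95%). Of its 25-base stretches 46.8% occur in other genes, most of them in Gm15459, so its level is uncertain.

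Hsph1 encodes HSP110, which exchanges the nucleotide of HSP70. It was 136, 341 and 1285 in control mice at RT, and 2787, 2117, 2615, 1643 and 1767 after the cold. In the knockout the values were 156, 409 and 750.4 at RT against 1003, 1642 and 3176 at 4°C. The groups did not overlap, although the mice at RT spread widely. Hsph1 rose at 4°C by 2.52 on the log2 scale in control mice (SE 0.43, limma adjusted p = 3.0e-05) and by 2.22 in knockout mice (SE 0.41, adjusted p = 8.6e-05). Of the 25-base stretches of Hsph1, 0.0676% occur in another gene.

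Dnajb1 encodes an HSP40 partner of the inducible HSP70. Its normalized count was 242, 279.9 and 326 in control mice at RT, and 1177, 1206, 707, 724 and 501 after the cold. The BAT-Mcu-KO values were 224, 252 and 295 at RT against 521, 736 and 1284 at 4°C. The mice at RT lay close together and those at 4°C did not, and the groups did not overlap. Dnajb1 rose at 4°C by 1.55 on the log2 scale in control mice (SE 0.21, limma adjusted p = 1.7e-06) and by 1.58 in knockout mice (SE 0.20, adjusted p = 6.6e-07). The SD of the log2 values was 0.18 and 0.15 at RT (control and BAT-Mcu-KO) and 0.54 in both genotypes at 4°C. Over the 23 mice its deviations from the group means had r = -0.56 with log2 depth (rho = -0.45, permutation p = 0.057 and 0.075, adjusted p = 0.40 and 0.44 over 70 pairs), with r = -0.67 among the 11 mice at 4°C and 0.33 among the 12 at RT. Without the 2 farthest mice the r over all mice was -0.58. Among the mice at 4°C and at RT, r with depth was -0.71 and 0.32 for Hsph1, and -0.50 and 0.34 for Hspa8. For the remaining members it was between -0.39 (Hspb1) and 0.14 (Hsf1) at 4°C. The part of depth in the spread was not tested.

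Bag3 encodes a BAG protein that binds HSP70 and leads clients to autophagy. It was 324, 358 and 419 in control mice at RT, and 1444, 1302, 1403, 1379 and 1567 after the cold. Knockout mice had 286, 411 and 488 at RT against 1047, 1268 and 1430.1 at 4°C. Both groups at 4°C were narrow and lay above all mice at RT. Bag3 rose at 4°C by 1.95 on the log2 scale in control mice (SE 0.11, limma adjusted p = 1.1e-12) and by 1.66 in knockout mice (SE 0.11, adjusted p = 7.0e-12). No 25-base stretch of Bag3 was found in another gene.

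Hsp90aa1 and Hsp90ab1 encode the inducible and the constitutive form of cytosolic HSP90. Hsp90aa1 was 293, 411 and 1010.4 in control mice at RT, and 1699, 1653, 1741, 2255 and 2003 after the cold. In the knockout the values were 248, 396 and 677 at RT against 1307, 1828 and 3423 at 4°C. The groups were apart in both genotypes. Hsp90aa1 rose at 4°C by 2.02 on the log2 scale in control mice (SE 0.29, limma adjusted p = 2.9e-06) and by 2.36 in knockout mice (SE 0.28, adjusted p = 1.4e-07). Of its 25-base stretches 53.4% occur in other genes, most in Gm12346.

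Hsp90ab1 was 9009.7, 11059.5 and 16774 in control mice at RT, and 21508, 20929, 25201, 23401 and 26096 after the cold. The BAT-Mcu-KO values were 8995, 12193 and 16107 at RT against 18888, 21071 and 28510.4 at 4°C. The groups did not overlap, with the smallest change among the genes that were called. Hsp90ab1 rose at 4°C by 0.97 on the log2 scale in control mice (SE 0.15, limma adjusted p = 8.0e-06) and by 0.90 in knockout mice (SE 0.14, adjusted p = 1.3e-05). Of its 25-base stretches 21.3% occur in other genes.

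Hspb1 encodes the small heat shock protein HSP25. It was 277, 376 and 814 in control mice at RT, and 1260.2, 1147, 1289, 1088 and 937 after the cold. Knockout mice had 290.0, 530.1 and 777 at RT against 682, 1193 and 1522 at 4°C. The groups were apart in control mice, and in BAT-Mcu-KO mice the highest mouse at RT was above the lowest at 4°C. Hspb1 rose at 4°C by 1.38 on the log2 scale in control mice (SE 0.27, limma adjusted p = 0.00014) and by 1.24 in knockout mice (SE 0.25, adjusted p = 0.00030). Of its 25-base stretches 53.5% occur in the pseudogene Hsp25-ps1.

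**Figure D2:**
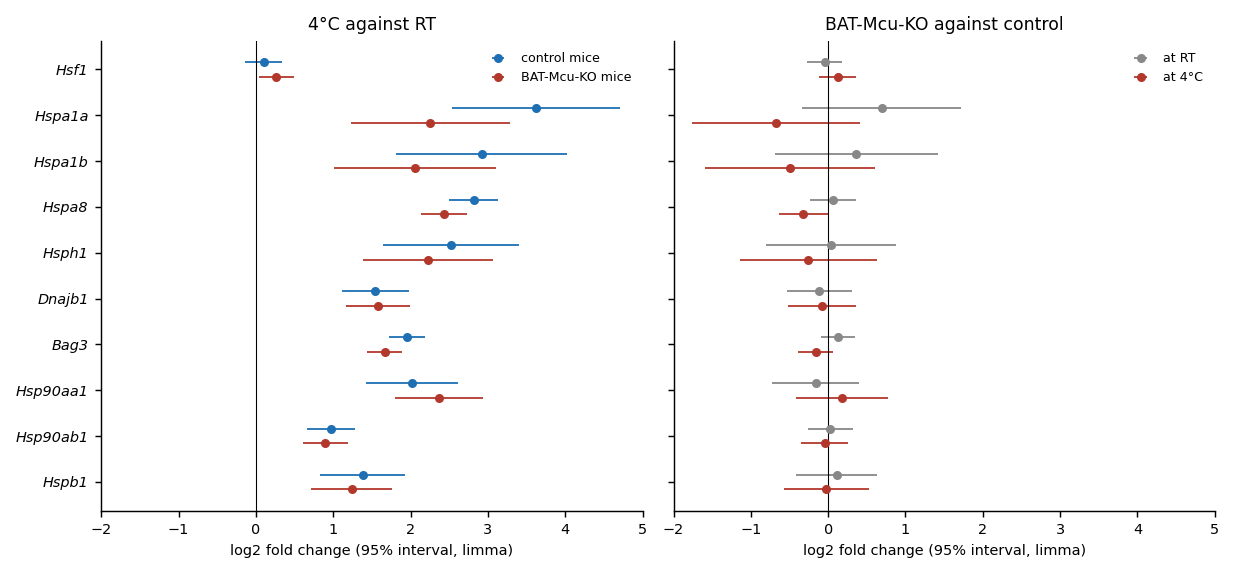
Log2 fold changes with 95% intervals from limma for the 10 genes, at 4°C against RT in each genotype (left) and in BAT-Mcu-KO against control mice at each temperature (right). By cold, the intervals of 9 genes in control mice and of all 10 in BAT-Mcu-KO mice lie above 0, while by genotype the intervals include 0 except that of Hspa8 at 4°C, which ends just below it.

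Levels can be compared between the genes per kilobase of exon. In control mice at RT, Hsp90ab1 was the highest with 4073 ± 991 normalized counts per kilobase (SD, n = 6), and its range did not overlap that of the next gene. Hspb1 (463 ± 224) and Hspa8 (388 ± 102) overlapped, as did Bag3 (143 ± 13.5) and Hsp90aa1 (131 ± 72.5). Dnajb1 (87.8 ± 11.0) and Hsph1 (67.6 ± 58.6) overlapped too, followed on average by Hsf1 (35.6 ± 4.38), Hspa1b (1.15 ± 0.645) and Hspa1a (0.815 ± 0.821). The range of Hsph1 (18.7 to 177) also took in those of Bag3 and Hsf1. That of Hsp90aa1 (74.5 to 257) took in that of Dnajb1, so the places of Hsph1 and Hsp90aa1 among these genes are not fixed. In control mice at 4°C Hsp90ab1 was at 7812 ± 749 (SD, n = 5) and Hspa8 was second at 2676 ± 298, followed by Hspb1 at 1109.9 ± 138. Hspa1a and Hspa1b stayed lowest there, at 14.5 ± 13.3 and 12.6 ± 11.2, below Hsf1 (38.2 ± 5.58) on average, although control mouse 2 reached the range of Hsf1 for both. Reads that fit several genes were not counted, so the levels of Hspa1a, Hspa1b, Hspb1, Hsp90aa1, Hspa8 and Hsp90ab1 may be too low on this scale.

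Between the genotypes, 0 of the 10 genes passed the test at either temperature. At RT, 0 were called by limma, DESeq2 and edgeR, against 0.0478% of all genes by limma. There, 0 of the 10 had an unadjusted p under 0.05 in limma, against 754 of all 14651 genes. At 4°C, 0 were called by any of the 3 tools, against 0.0751% of all genes by limma. Of all 14651 genes, 1023 had an unadjusted p under 0.05 at 4°C in limma, among them 1 of the 10 genes. This was Hspa8, lower by a log2 difference of -0.32 (95% interval -0.64 to -0.0043, adjusted p = 0.707, limma). The genotypes overlapped for all 10 genes at both temperatures, where 0.218% of all genes were apart at RT and 0.683% at 4°C. The intervals at 4°C were narrow for Bag3 (-0.40 to 0.07), Hsf1 (-0.12 to 0.36) and Hsp90ab1 (-0.35 to 0.26). They were wide for Hspa1a (-1.75 to 0.41), Hspa1b (-1.59 to 0.61) and Hsph1 (-1.14 to 0.63), so differences within these bounds remain possible.

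The change by cold did not differ by genotype beyond the spread between mice in any of the 10 genes. The interaction was called in 0 of them by limma, DESeq2 and edgeR, and over all genes it was called in 0.0% (limma), with 878 of 14651 genes at an unadjusted p under 0.05. The interaction is the log2 fold change in BAT-Mcu-KO mice minus that in control mice. It was -1.37 for Hspa1a (95% interval -2.86 to 0.13, adjusted p = 0.841, limma), -0.29 for Bag3 (-0.61 to 0.03, adjusted p = 0.841) and -0.38 for Hspa8 (-0.82 to 0.05, adjusted p = 0.850). For the sum of Hspa1a and Hspa1b it was -1.03 (-2.41 to 0.34, adjusted p = 0.862). Both genotype comparisons use the mice of both cold comparisons, so these values are not independent of those above.

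Apart from Hspa1a and Hspa1b, which rest on few reads, Hsph1, Hsp90aa1 and Hspb1 differed most between mice of one group at RT. Hsph1 in control mice at RT had an SD of 1.16 on the log2 scale, and 2.75% of all genes varied more in that group. Its SD was 0.34 in control mice at 4°C. Bag3 had an SD of 0.13 in control mice at RT, where 91.7% of all genes varied more, and of 0.28 in BAT-Mcu-KO mice at RT, where 49.4% did. Hsph1, Hspb1, Hsp90aa1, Hsp90ab1 and Hspa8 were all highest in control mouse 1 at RT and next highest in control mouse 2. In BAT-Mcu-KO mice at RT, mouse 2 was the highest for these 5 genes, and at 4°C mice 3 and 4 were the highest for Hsph1, Hspb1, Hsp90aa1 and Hsp90ab1. Control mice at 4°C did not share such an order. There, the log2 deviation from the group mean was 0.38 in mouse 1 and -0.38 in mouse 4 for Hsph1. For Hsp90aa1 it was -0.13 and 0.28 in the same mice.

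**Figure D3:**
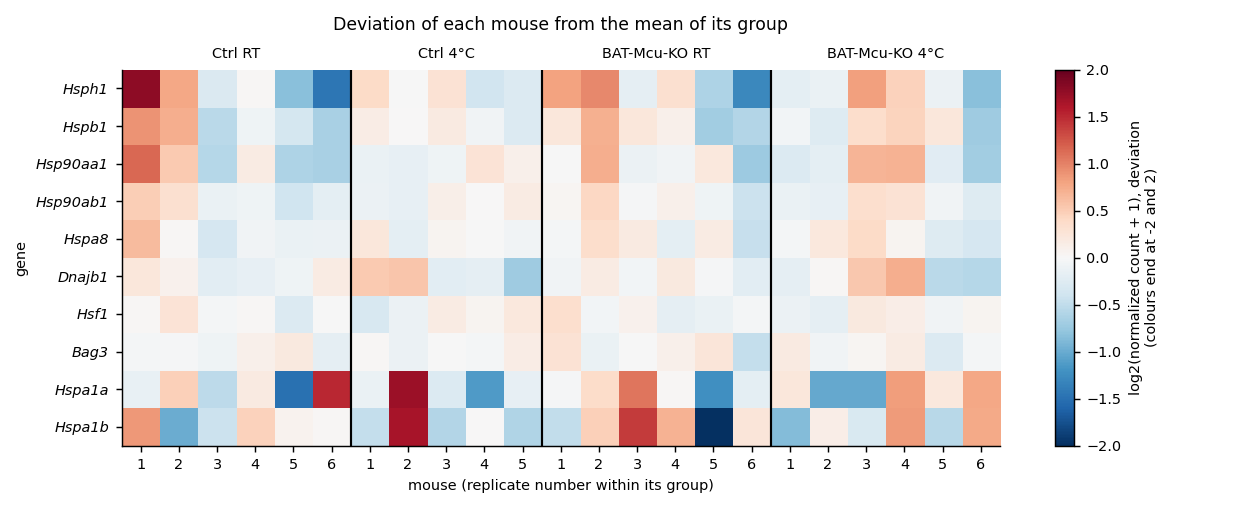
Deviation of each of the 23 mice from the mean of its group, in log2(normalized count + 1), for the 10 genes (rows), with colours ending at -2 and 2. Outside control mice at 4°C, the rows of Hsph1, Hspb1, Hsp90aa1 and Hsp90ab1 mostly share their high and low mice. The row of Bag3 does not follow them. In control mice at 4°C the signs of Hsph1 and Hsp90aa1 differ in mice 1, 3, 4 and 5.

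These shared deviations were measured as correlations over the 23 mice, with group means removed, for the 45 pairs of the 10 genes. The mice were shuffled within groups 100000 times, and both p-values were adjusted over the 45 pairs. Hsp90aa1 and Hsp90ab1 had a Pearson r of 0.92 and a Spearman rho of 0.90, each with a permutation p of 1e-05, the smallest that these shuffles can give (adjusted p = 0.00022). Without the 2 mice farthest from the median, r was 0.88. Hspb1 and Hsph1 had r = 0.90 and rho = 0.89 (permutation p = 1e-05 for both, adjusted p = 0.00022), and r was 0.87 without the 2 farthest mice. Within the 12 mice at RT r was 0.92 for the first pair and 0.91 for the second, and within the 11 mice at 4°C it was 0.90 and 0.87. Hsph1 and Hsp90ab1 had r = 0.85 (permutation p = 3e-05, adjusted p = 0.00045) and rho = 0.79 (permutation p = 2e-05, adjusted p = 0.0003), with r = 0.84 without the 2 farthest mice. Bag3 did not share this pattern: its r with the other 9 genes was between -0.29 and 0.28. Hspa1a and Hspa1b had r = 0.52 (permutation p = 0.015, adjusted p = 0.049) and rho = 0.41 (permutation p = 0.071, adjusted p = 0.19), with r = 0.45 without the 2 farthest mice.

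Among all genes, those with deviations most like Hsph1 were P4ha1 (r = 0.93 over 23 mice), Ahsa1 (0.92) and Hspa4l (0.91). P4ha1 encodes a subunit of collagen prolyl 4-hydroxylase, Ahsa1 an activator of the HSP90 ATPase and Hspa4l an HSP110 protein. For Hsp90aa1 they were Hsp90ab1 (0.92), Hspa4l (0.89) and Gm5844 (0.88), and 40.7% of the 25-base stretches of Hsp90aa1 occur in Gm5844. For Hsp90ab1 they were Hsp90aa1 (0.92), Ahsa1 (0.92) and P4ha1 (0.87), and for Hspb1 Hsph1 (0.90), Hspa4l (0.89) and Stip1 (0.88), which encodes an adaptor between HSP70 and HSP90. With the summed level of 6 immediate early genes, which respond fast to stimulation, the deviations of Hsph1 had r = 0.58 (rho = 0.43, permutation p = 0.041 and 0.069). This did not pass after adjustment over 70 pairs (adjusted p = 0.40 and 0.44) and was 0.33 without the 2 farthest mice. The r was similar for Hspb1 (0.57), Hsp90ab1 (0.55), Hspa8 (0.54) and Hsp90aa1 (0.53), each with a permutation adjusted p of 0.40. For the remaining members it was between 0.01 (Bag3) and 0.33 (Hsf1).

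The rest of the cytosolic chaperone network was followed in 7 lists with 52 measured genes that do not include the 10. In control mice 29 of the 52 rose at 4°C, 3 fell and 20 did not pass the test, and in BAT-Mcu-KO mice 28 rose, 7 fell and 17 did not pass, against the 22.3% and 21.4% of all genes that rose. Their median log2 fold change was 0.46 and 0.29, against 1.99 and 1.86 for the 10 genes. None of the 52 was called between the genotypes or in the interaction by limma.

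**Figure D4:**
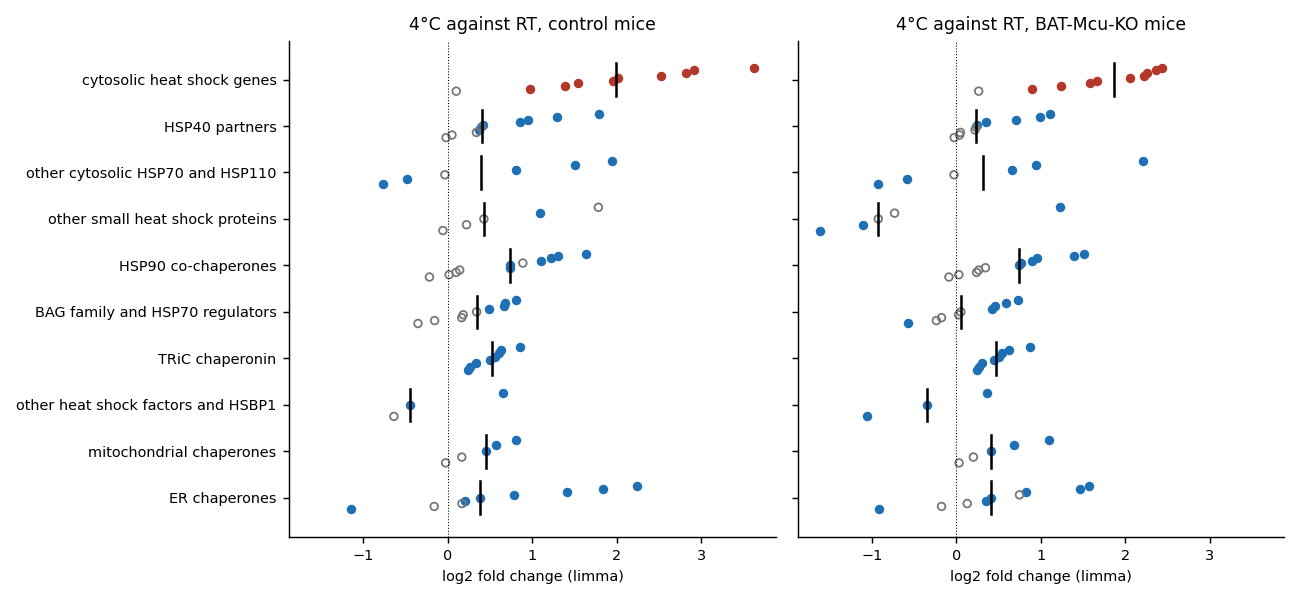
Log2 fold change at 4°C against RT (limma) in control (left) and BAT-Mcu-KO mice (right), with 1 point per gene for the 10 cytosolic heat shock genes and 9 lists of other chaperone genes. Filled points passed the test, open points did not, and black bars are the medians of each list, 1.99 and 1.86 for the 10 genes.

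Genes for partners of HSP70 and HSP90 were among those that rose. Of 10 HSP40 partners, 6 rose in control mice and 5 in BAT-Mcu-KO mice, with Dnaja1 at 1.29 (adjusted p = 1.8e-06, limma) and 1.11 (8.5e-06). Dnajb5 rose by 1.79 in control mice (adjusted p = 0.00029, limma) but had 0.05 in BAT-Mcu-KO mice (adjusted p = 0.92). Its interaction was not called. Of 6 other HSP70 and HSP110 genes, 3 rose and 2 fell in each genotype. Hspa4l rose by 1.95 (adjusted p = 3.5e-07) and 2.20 (2.4e-08), Hspa4 by 1.51 and 0.95, while Hspa12a changed by -0.76 and -0.93. Of 11 HSP90 co-chaperones 6 rose in each genotype, and these included Chordc1 (1.64 and 1.39) and Ahsa1 (1.31 and 1.51). Of 9 BAG family genes and HSP70 regulators 4 rose in each, Bag5 by 0.80 and 0.73, and 1 fell in BAT-Mcu-KO mice. All 8 subunits of the TRiC chaperonin, which folds actin and tubulin, rose in both genotypes, by 0.23 to 0.86 in control mice.

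Other small heat shock proteins and heat shock factors did not move as one. Hspb8, a partner of BAG3, rose by 1.08 (adjusted p = 3.1e-06, limma) in control mice and by 1.23 (2.4e-07) in BAT-Mcu-KO mice. Hspb6 and Cryab, which are abundant in muscle, fell in BAT-Mcu-KO mice (-1.61, adjusted p = 0.0091, and -1.10, adjusted p = 0.0283) and had values of -0.06 and 0.22 in control mice, and the interaction was not called. The summed level of the 8 muscle markers was 18.6 to 46084 in the RT group and 49.2 to 8539 in the 4°C group of this genotype, and its part in these values was not tested. Hsf2 rose in both genotypes (0.66 and 0.37), Hsbp1, whose product binds HSF1, changed by -0.44 and -0.35, and Hsf4 was called only in BAT-Mcu-KO mice (-1.05, adjusted p = 0.0030, against -0.64, adjusted p = 0.0732), a difference that was not called.

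For chaperones outside the cytosol, 3 of 5 mitochondrial genes rose in each genotype, with Hspe1 at 0.80 and 1.09 and its partner Hspd1 at 0.57 and 0.69. Of 9 chaperone genes of the endoplasmic reticulum, 6 rose and 1 fell in control mice and 5 rose and 1 fell in BAT-Mcu-KO mice, with Sdf2l1 at 2.24 and 1.46 and Dnajb9 at 1.84 and 1.57. The median was 0.45 and 0.41 for the mitochondrial list and 0.38 and 0.41 for that of the endoplasmic reticulum, below the medians of the 10 cytosolic genes, a difference that was not tested. In the promoter windows of these 9 lists, 3 units of the heat shock element were found in Dnajb6, Chordc1, Hspd1 and Hspe1. These were 1 of 8 HSP40 partners, 1 of 10 HSP90 co-chaperones and 2 of 4 mitochondrial genes with a window. The other lists held none, and whether the windows of Hspd1 and Hspe1 share the same bases was not tested. Among all measured genes with a window the share was 0.591%. The temperatures overlapped for Dnajb6 in both genotypes.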

How the data were processed

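BAT RNA of 23 mice was analysed in 4 groups taken from the sample labels. Per the study's methods, Smart-seq2 libraries were read as pairs of 25 bases, and the authors aligned them to mm10 (GENCODE M7) with STAR 2.4.0j and counted unique exonic reads with HTSeq, irrespective of strand. The signal that the authors deposited is the normalized count, reads divided by the DESeq2 size factor, for genes that reached 8 reads in 6 or more samples. Values were whole multiples of 1 read in each sample, so reads were recovered (100% of values within 0.05 of a read). Intervals cover the spread between mice, and read numbers carry counting error only. The authors' table of fold changes and p-values was not used.

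log2(normalized count + 1) was fitted with limma 3.58.1 in R 4.3.3, with 4 group means, a variance trend and Benjamini-Hochberg adjustment over 14651 genes. DESeq2 1.42.0 and edgeR 4.0.16 on the recovered reads were alternatives, and all were tested on simulated data. Positions and 25-base stretches come from GENCODE M21 (GRCm38), and promoters from RefSeq. No pair of libraries within a group agreed within sampling noise (lowest chi-square per degree of freedom 9.42).

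Members and lists were chosen with earlier results of these data known. All 10 members are named, from each list up to 3 called genes with the largest mean change by cold, and the 3 genes most like a member for the 4 members with the highest such r.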

Additional observations from a re-analysis of the deposited data

Results flagged for a closer look

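Of the 40 groups of values tested for a mouse that stands apart (10 genes in 4 groups), 3 had one by Dixon's test at the 95% level, and chance gives about 1 in 20. Control mouse 2 at 4°C had 112.301 normalized counts of Hspa1a and 91.0547 of Hspa1b, far above the other 4 control mice at 4°C, which lay at 14.7 to 30.3 for Hspa1a and 18.4 to 28.6 for Hspa1b. Control mouse 1 at RT had 2535.24 normalized counts of Hspa8, above the other 5 control mice at RT. No cause was tested.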

How the results depend on the processing

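By genotype and in the interaction, 0 members were called in each alternative run. By cold, 9 were called in control mice and 9 in BAT-Mcu-KO mice, except as follows. Where only genes averaging 50 normalized counts or more were tested, which leaves out Hspa1a and Hspa1b, 7 and 8 were called, the latter with Hsf1. With Hspa1a and Hspa1b summed as 1 gene, 8 were called in each genotype. With 1 mouse left out, 9 to 9 were called in control mice and 9 to 10 in BAT-Mcu-KO mice, where Hsf1 passed without control mouse 5 at RT (adjusted p = 0.048), control mouse 1 at 4°C (0.042), BAT-Mcu-KO mouse 1 at RT (0.018) or BAT-Mcu-KO mouse 2 at 4°C (0.041). The labels give the mice replicate numbers and do not say what same-numbered mice share. Same-numbered mice had correlations of -0.36 to 0.43, with 0.0042 to 0.43 between the genotypes at 4°C. The replicate number as a block called 9 by cold in each genotype and 0 in the other comparisons, like the fit without it. Mice correlated best with their own number in 1 of 5 (cold, control), 0 of 6 (cold, BAT-Mcu-KO), 0 of 6 (genotype, RT) and 2 of 5 (genotype, 4°C) cases, and the block called 7 genes by genotype at 4°C in all, against 11. Small uncalled values changed sign. By cold in control mice, Hsf1 was -0.0089 with 75th percentile scaling, which moved the median of all genes to -0.13. By genotype at RT, Hsph1 was -0.16 with DESeq2 and -0.17 with edgeR, and Hsp90ab1 was -0.0025 with 75th percentile scaling. By genotype at 4°C, Hspb1 was 0.0025 with 75th percentile scaling, 0.10 with the replicate block, 0.016 with DESeq2 and 0.017 with edgeR, and Hsp90ab1 was 0.014 with the block. With 1 mouse left out, values at RT were -0.31 to 0.067 (Hsp90aa1), -0.11 to 0.012 (Hsf1), -0.0048 to 0.19 (Hspa8), -0.25 to 0.40 (Hsph1), -0.029 to 0.29 (Hspb1) and -0.055 to 0.12 (Hsp90ab1). At 4°C they were -0.26 to 0.061 (Dnajb1), -0.12 to 0.12 (Hspb1) and -0.11 to 0.0068 (Hsp90ab1). For the interaction they were -0.14 to 0.17 (Dnajb1), -0.32 to 0.0030 (Hspb1) and -0.17 to 0.0098 (Hsp90ab1). The cause of these changes was not tested. Over all genes, DESeq2 called 20 by genotype at RT against 7 in limma, 23 at 4°C against 11, and 28 in the interaction against 0, while edgeR called 6 at 4°C. Depth limits Hspa1a and Hspa1b, which rest on 0 to 13 reads per mouse at RT.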

Other observations

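Several genes that share sequence with a member stand in the table at low levels. Gm12346 and Gm5844, which hold 48.7% and 40.7% of the 25-base stretches of Hsp90aa1, had 2.10% and 1.44% of its mean normalized count, and log2 fold changes by cold of 1.69 and 2.21 in control mice and 2.35 and 2.53 in BAT-Mcu-KO mice, against 2.02 and 2.36 for Hsp90aa1. Gm8337, Gm8326 and Gm8141, which share 14.9%, 13.5% and 8.62% of the stretches of Hspa8, changed by 2.35, 2.34 and 2.19 in control mice and 1.88, 2.36 and 1.98 in BAT-Mcu-KO mice, where Hspa8 changed by 2.81 and 2.43. Gm26825, which shares 39.8% of the stretches of Hspa8, changed by 0.72 in control mice and 2.96 in BAT-Mcu-KO mice, and Gm5575, which shares 3.24%, by 2.66 and 1.96. Gm10501, which holds 14.1% of the stretches of Hspa1a, went the other way, with -0.87 and -0.93 in the 2 genotypes. These genes were chosen after their values were seen, and whether their reads came from the members was not tested.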
